A study of Homo sapiens with 4 samples.

Results

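The 10 genes described here belong to the NF-κB pathway and were followed in 4 RNA sequencing libraries of lung adenocarcinoma (LAD) cells: the 5 subunits NFKB1, NFKB2, RELA, RELB and REL, the 3 IκB proteins NFKBIA, NFKBIB and NFKBIE, and the 2 feedback genes TNFAIP3 and BIRC3. They were taken by gene symbol through GENCODE release 44, and all 10 were found among the 60558 genes of each library. Both established human LAD lines, A549 and HCC827, were transduced either with empty vector or with myr-AKT1. The latter is an AKT1 kinase held at the membrane and thereby constitutively active. The promoter that drives the construct and the number of clones are not given in the sources used here. Each line gave 1 vector and 1 myr-AKT1 library, so a difference within a line has no replicate check and no p-value was computed for it. In such bulk RNA a larger share of expressing cells and more RNA per cell cannot be told apart.

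NF-κB factors are dimers of the 5 subunits. NFKB1 and NFKB2 encode the precursors p105 and p100, which are processed to the DNA-binding subunits p50 and p52, whereas RELA (p65), RELB and REL carry the domains that activate transcription. IκB proteins hold the dimers in the cytoplasm until a kinase complex marks them for degradation. Several of the genes that NF-κB then switches on encode its own inhibitors, so their mRNAs are often read as a record of pathway activity. NFKBIA and NFKBIE encode IκBα and IκBε, TNFAIP3 encodes the ubiquitin-editing enzyme A20, and BIRC3 encodes the ubiquitin ligase cIAP2. In lung epithelium the pathway is known for its response to TNF and IL1.

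Recovered read numbers ranged from 16322183 in HCC827-myr-AKT1 to 33530317 in A549-vector. The AKT1 gene, which checks the labels, was higher in the myr-AKT1 library of both lines, by 1.48-fold in A549 and 2.21-fold in HCC827. Across the lines it was not called (adjusted p = 0.134 from limma). All 8 epithelial markers had reads in every library, but their levels differed. In A549 cells 6 of the 8 had log2 fold changes above 0 with myr-AKT1, and in HCC827 cells 3 had. Over all genes read in every library 45.4% and 47.4% had. In A549-myr-AKT1 CLDN4 had 255 reads against 10 with vector, and KRT19 was 6.28-fold and CDH1 2.62-fold higher. KRT8 and KRT18 were lower there, at -0.36 and -0.38. In HCC827-myr-AKT1 KRT8 and KRT18 had log2 fold changes of -1.81 and -1.75. CLDN4, ELF3 and CDH1 were higher there, at 0.47, 0.41 and 0.31. Of the lung lineage markers, SFTPC had 0 reads in all 4 libraries and NKX2-1 had 0 reads in A549-vector and 8 in A549-myr-AKT1. NAPSA had 48 and 30 reads in the A549 libraries, vector first, and SFTPB had 0 in both. In HCC827 cells NKX2-1 had 1993 reads with vector and 702 with myr-AKT1, NAPSA 4520 and 1597, and SFTPB 42 and 2. The log2 fold changes there were -0.84, -0.84 and -3.73. REL and RELB are abundant in blood cells, so 8 lymphoid and myeloid markers were summed as well. The sum was 894 normalized counts in A549-myr-AKT1 against 41.9 in A549-vector and 176 in HCC827-myr-AKT1 against 93.8 in HCC827-vector. CD14 made up 784 of the 894 and was higher in both lines (adjusted p = 0.0378 from limma). LYZ had 69 reads in A549-myr-AKT1 against 3 in A549-vector, and CD68 19 against 2. The defining marker CD3E was at 0 in every library, while PTPRC had 0 to 7 reads. The 5 fibroblast markers summed to 1133 against 105 normalized counts in A549 cells and 185 against 52.5 in HCC827 cells, myr-AKT1 first. Of these, COL1A1 was 9.95-fold and 4.01-fold higher (adjusted p = 0.0381 from limma), LUM was 15.3-fold higher in A549-myr-AKT1, and COL1A2 was at 0 in every library. The 3 endothelial markers summed to 137 against 13.1 and to 138 against 76.3, with 59 reads of CDH5 in A549-myr-AKT1 against 1. The CD14 and COL1A1 calls ended with a pseudocount of 0.5. The part of these markers in the results was not tested.

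Because the feedback loop runs through κB sites, the promoter windows of the members are shown first. RefSeq windows on GRCh38.p14, from 250 bases before a transcript start to 49 bases after it with the start at 0, were found for 8 of the 10 genes, in 13 windows. The set of windows used here held none for RELB or NFKBIE, so their promoters could not be searched. The κB consensus of 10 bases, searched on both strands, occurred in 8 of the 13 windows and in 7 of the 8 genes. Of all 35114 windows 11.3% held it, and of all 27303 genes with a window 13.3% did. A match describes the letters only and does not show that a factor was bound. The stretches below hold the matches of the members that lie outside the gene body in GENCODE, and capitals mark the consensus.
TNFAIP3, chr6:137867173-137867232, plus strand: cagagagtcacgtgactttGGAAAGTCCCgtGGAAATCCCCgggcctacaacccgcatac
NFKBIA, chr14:35404796-35404855, minus strand: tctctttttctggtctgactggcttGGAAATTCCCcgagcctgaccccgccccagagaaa
BIRC3, chr11:102317260-102317319, plus strand: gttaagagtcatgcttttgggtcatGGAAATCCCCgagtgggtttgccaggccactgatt
BIRC3, chr11:102317324-102317383, plus strand: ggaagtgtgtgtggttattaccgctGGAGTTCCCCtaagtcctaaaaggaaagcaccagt
NFKB1, chr4:102501285-102501344, plus strand: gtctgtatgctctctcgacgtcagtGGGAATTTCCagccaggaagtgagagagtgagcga
TNFAIP3 carried 2 matches, at -67 to -58 and -55 to -46, and BIRC3 2 matches further upstream, at -199 to -190 and -135 to -126. NFKBIA had its match at -81 to -72 and NFKB1 at -49 to -40. In NFKB2, whose first window had none, the matches lay within the gene. They included GGGAATTCCC and GGGGCTTTCC in an exon within window 2 and GGGACTTTCC in an exon within window 3, windows being numbered along the gene. REL had GGGAAATTCC at -47 to -38, in an annotated exon. NFKBIB had GGGAATTTCC at -28 to -19, in an intron. Neither of the 2 RELA windows held a match.

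**Figure D1:**
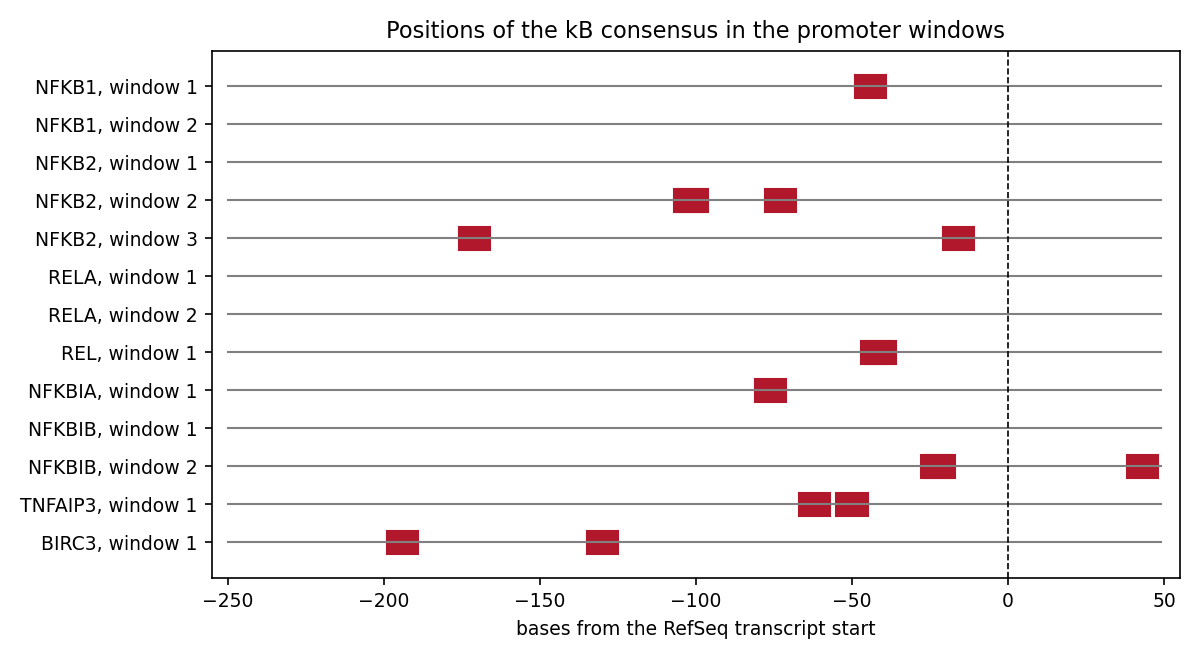
Positions of the κB consensus (red blocks) in the 13 RefSeq promoter windows of 8 genes, with bases from the transcript start on the x axis and 1 grey line per window. Windows of 7 genes hold a match, and both RELA windows are empty.

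The mRNAs of A20 and IκBε had the largest log2 fold changes of the 10 members in both lines. TNFAIP3 had 688 normalized counts in A549-vector and 1658 in A549-myr-AKT1, and 414 in HCC827-vector and 1818 in HCC827-myr-AKT1. Normalized counts are reads divided by a size factor of the library. Both myr-AKT1 values lay above both vector values on this scale, which was set within each line. How many of all genes had such an order was not counted. Myr-AKT1 over vector, TNFAIP3 was 2.41-fold in A549 (log2 fold change 1.27, 95% counting interval 1.14 to 1.40). In HCC827 it was 4.39-fold (2.13, 1.99 to 2.28). NFKBIE had 187 normalized counts in A549-vector and 368 in A549-myr-AKT1, and 124 and 492 in the corresponding HCC827 libraries. Here too the 2 myr-AKT1 values lay above the 2 vector values. The log2 fold changes were 0.98 (0.72 to 1.23) and 1.99 (1.72 to 2.27).

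In A549 cells 1 of the 10 members, TNFAIP3, was past 2-fold higher. Of the 18750 genes whose normalized count averaged 10 or more over the pair, 15.1% were. NFKBIE lay just outside, and it passed with a log2 fold change of 1.08 when size factors were estimated over all 4 libraries and with 1.04 under TMM scaling. In HCC827 cells 3 members, TNFAIP3, NFKBIE and RELB, were past 2-fold higher, against 14.1% of 17358 genes. RELB, at 1.03, was just inside the threshold and RELA, at 0.88, just outside it. At the stricter 4-fold threshold, 0 members were left in A549 cells, against 5.79% of genes, and TNFAIP3 alone was left in HCC827 cells, against 4.65% of genes. No member was past 2-fold lower in either line, against 9.87% of genes for A549 and 12.4% for HCC827. Over the 10 members the log2 fold changes had medians of 0.39 (A549) and 0.79 (HCC827). Over all genes the medians were -0.03 and -0.04. In A549 cells 88.5% of genes lay below TNFAIP3 and 84.5% below NFKBIE. In HCC827 cells 95.9% of genes lay below TNFAIP3 and 95.3% below NFKBIE.

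**Figure D2:**
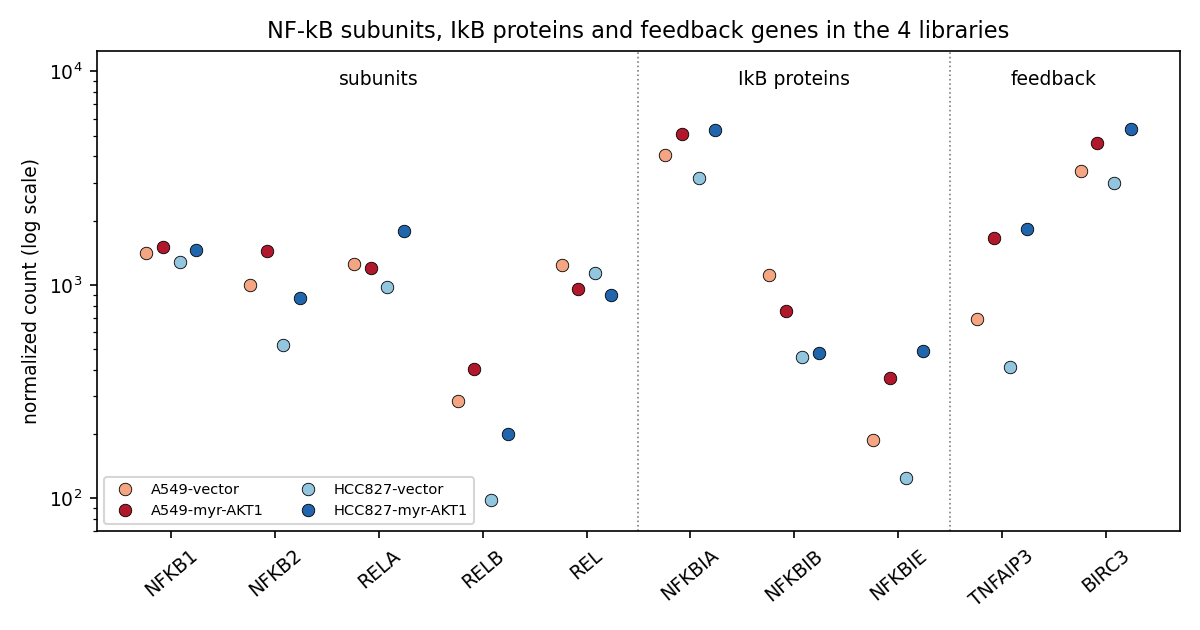
Normalized counts (log axis) of the 10 members, 1 point per library, in the 4 libraries. The counts are scaled within each line. TNFAIP3 and NFKBIE are higher in both myr-AKT1 libraries than in either vector library, whereas REL is lower with myr-AKT1 within each line.

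Of the other inhibitors, IκBα mRNA was higher with myr-AKT1 in both lines and IκBβ mRNA was lower in A549-myr-AKT1. NFKBIA had 4069 normalized counts in A549-vector and 5106 in A549-myr-AKT1, and 3161 in HCC827-vector and 5305 in HCC827-myr-AKT1. These are log2 fold changes of 0.33 (0.27 to 0.39) and 0.75 (0.68 to 0.81). NFKBIB had 1116 normalized counts in A549-vector and 757 in A549-myr-AKT1, a log2 fold change of -0.56 (-0.70 to -0.42). In HCC827 cells it had 457 with vector and 479 with myr-AKT1, and the interval of -0.12 to 0.26 included 0. NFKBIB encodes IκBβ, which is known to respond more slowly to stimulation than IκBα. BIRC3, the other feedback gene, had 3405 and 4642 normalized counts in the A549 libraries and 2995 and 5359 in the HCC827 libraries, vector first. The log2 fold changes were 0.45 (0.38 to 0.51) and 0.84 (0.78 to 0.90).

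Among the subunits, the genes of the non-canonical branch were higher in both myr-AKT1 libraries. NFKB2 had 994 normalized counts in A549-vector and 1437 in A549-myr-AKT1, and 525 in HCC827-vector and 868 in HCC827-myr-AKT1. This gave 0.53 (0.42 to 0.65) in the first line and 0.73 (0.57 to 0.88) in the other. RELB, the usual partner of p52, had 286 and 405 normalized counts in A549 cells and 97.8 and 200.1 in HCC827 cells, vector first. The values were 0.51 (0.28 to 0.73) and 1.03 (0.68 to 1.38). For either gene both A549 values exceeded both HCC827 values, but this scale was set within each line and does not order the lines. Scaled to gene length and to the library's reads in genes, NFKB2 was lower in A549-vector (6.08) than in HCC827-myr-AKT1 (7.57).

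The subunits of the canonical branch differed among themselves. RELA had 1249 normalized counts in A549-vector and 1197 in A549-myr-AKT1, giving a log2 fold change of -0.06 (-0.18 to 0.05). Under scaling over all 4 libraries this value turned to 0.04. In HCC827 cells RELA had 972 with vector and 1793 with myr-AKT1, a log2 fold change of 0.88 (0.77 to 0.99). NFKB1 had 1410 and 1502 normalized counts in A549 cells and 1279 and 1461 in HCC827 cells, vector first. Within each line the myr-AKT1 value was the higher one. The log2 fold changes were 0.09 (-0.01 to 0.20) and 0.19 (0.08 to 0.30). REL, the cellular relative of the avian viral oncogene v-rel, was the member that was lower in both lines. It had 1232 normalized counts in A549-vector and 955 in A549-myr-AKT1, and 1142 in HCC827-vector and 899.7 in HCC827-myr-AKT1. The log2 fold changes were -0.37 (-0.49 to -0.24) and -0.34 (-0.48 to -0.21). Of the exon bases of REL, 33.3% are shared with the lncRNA gene ENSG00000267520 on the same strand, which was at 0 reads in all 4 libraries. How the counting treated reads shared by both genes is not given in the sources used here, so the level of REL is uncertain.

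**Figure D3:**
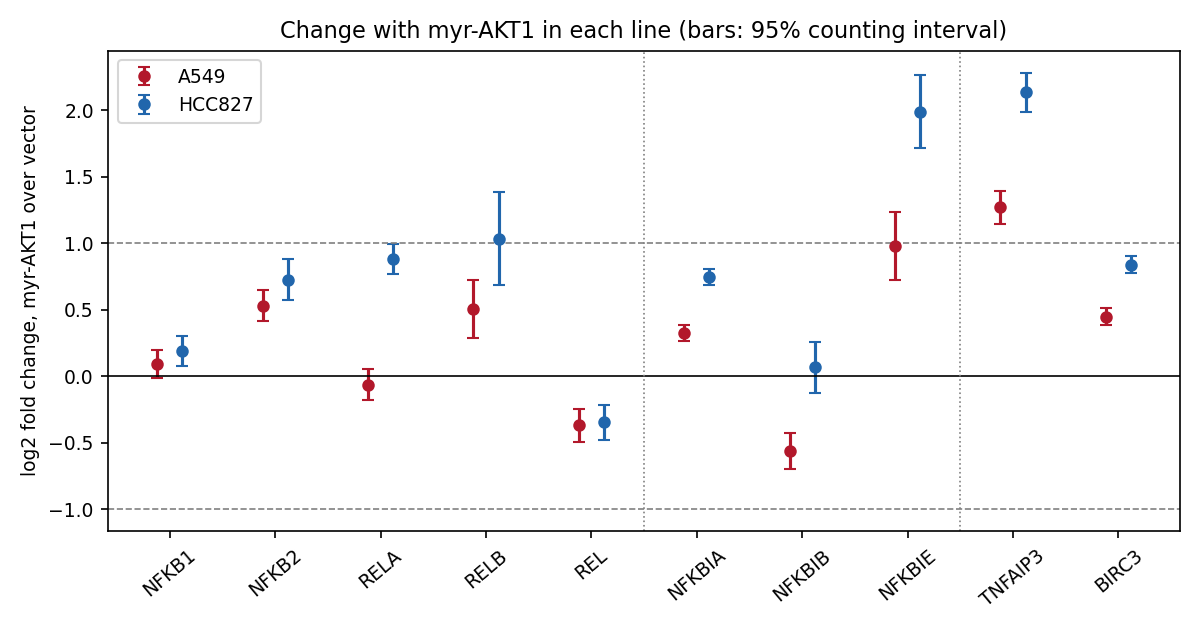
Log2 fold change of each member, myr-AKT1 over vector, in A549 (red) and HCC827 (blue) cells. Bars are 95% counting intervals from the reads of 1 library per condition, and dashed lines mark 2-fold. With this scaling, set within each line, all 10 HCC827 points lie above the A549 points of the same gene. With size factors or TMM over all 4 libraries REL does not.

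All 10 members had a higher log2 fold change in HCC827 cells than in A549 cells, as did 53.7% of the 15668 genes that averaged 10 or more in each pair and were read in every library. With size factors over all 4 libraries and with TMM it was 9 of 10, since REL turned, against 50.8% and 49.3% of genes. The difference between the lines could not be tested, because the design has no residual degree of freedom for it. By counting error alone, the 95% interval of the difference was above 0 for 8 members and included 0 for NFKB1 and REL. Under both scalings over all 4 libraries it was above 0 for 7, NFKB2 then including 0 as well. The difference was 1.01 for NFKBIE (0.65 to 1.38), 0.94 for RELA (0.79 to 1.10), 0.87 for TNFAIP3 (0.67 to 1.06) and 0.63 for NFKBIB (0.40 to 0.86). It was 0.02 for REL (-0.16 to 0.20). The order of the members was similar in the lines, with a Spearman's rho of 0.782 and a Pearson's r of 0.913 across the 10 genes. Across all 15668 genes the corresponding values were 0.422 and 0.427. The 2 sets are not matched in level, since all genes include those averaging 10 normalized counts. Every member had at least 123 reads in each library. The effect of this was not tested. The coefficients describe genes of the same 4 libraries, which are not independent replicates.

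Taking both lines as the replicates, limma with cell line as a block called 1 member higher and 0 lower, the threshold being a Benjamini-Hochberg adjusted p of 0.05. Of the 19314 genes tested, 1.29% were called higher and 1.73% lower. The called member was TNFAIP3, which rose by a log2 fold change of 1.70 on the log2(normalized count + 1) scale (standard error 0.310, adjusted p = 0.0335 from limma), higher in 2 of 2 lines. On recovered reads TNFAIP3 had an adjusted p of 0.0432 from edgeR's quasi-likelihood test and 4.71e-04 from DESeq2's Wald test, which made many more false calls than limma or edgeR on simulated data of this design. TNFAIP3 was the 1 member either tool called higher, and 0 were called lower. Over all genes edgeR called 1.01% higher and 1.18% lower, and DESeq2 3.22% and 2.68%. With a pseudocount of 0.5 in place of 1 limma's adjusted p was 0.0561, which ends the call. Over the alternatives that kept the cell line block the adjusted p of TNFAIP3 ranged from 1.66e-05, in limma without the filter on low values, to 0.117, in limma with a pseudocount of 0.1. Without the block limma called 0 genes, with 201 higher and 430 lower at an unadjusted p under 0.05. NFKBIE had 1.48 (standard error 0.417) with an adjusted p of 0.115 from limma, and BIRC3 had 0.64 (0.247) with an adjusted p of 0.219. The adjusted p of the other 7 members from limma lay between 0.276 and 0.826. At an unadjusted p under 0.05, limma had 3 members higher and 0 lower, where 9.17% and 9.24% of all genes were. The fit has 1 residual degree of freedom.

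Per length, IκBα was the most abundant member and the composition of each class differed between libraries. Levels were computed as RPKM, which are reads scaled to the length of the merged exons and to the library's reads in genes. NFKBIA ranked first of the 10 in all 4 libraries, from 40.9 RPKM in A549-vector to 76.1 in HCC827-myr-AKT1. BIRC3 followed in 3 libraries, with 18.4 to 34.9 RPKM. In A549-vector NFKBIB, with 16.4 RPKM, came before BIRC3, with 15.5. RELA had the largest share of the summed level of the 5 subunits in 3 libraries, with 34.5% in A549-vector, 39.3% in HCC827-vector and 47.2% in HCC827-myr-AKT1. In A549-myr-AKT1 the share of RELA was 28.7% and NFKB2 held the largest, 33.7%. REL held 7.30% to 14.7%. NFKBIE made up 4.13% of the 3 IκB mRNAs in A549-vector and 7.22% in A549-myr-AKT1, and 4.08% and 9.73% in the corresponding HCC827 libraries. NFKBIB went from 27.4% to 16.5% in A549 cells and from 16.7% to 10.5% in HCC827 cells. Lengths of the longest transcript changed these levels and the lower ranks.

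Ratios within a library do not depend on the size factors, but their level depends on the gene lengths used. With longest transcripts NFKB2 over NFKB1 was 0.846 in HCC827-vector, and A20 over RELA was 0.812 in A549-myr-AKT1. The values below are over merged exons. The ratio of the 3 IκB mRNAs to the 5 subunit mRNAs, summed per length, was 2.64 in A549-vector, 2.58 in A549-myr-AKT1, 2.60 in HCC827-vector and 2.81 in HCC827-myr-AKT1. The ratio of A20 to RELA mRNA was further apart. It was 0.467 (95% counting interval 0.427 to 0.509) in A549-vector and 1.17 (1.08 to 1.27) in A549-myr-AKT1, and 0.361 (0.325 to 0.400) and 0.859 (0.798 to 0.925) in the HCC827 libraries. NFKB2 over NFKB1 was 1.98 (1.83 to 2.14) and 2.69 (2.48 to 2.90) in A549 cells and 1.15 (1.05 to 1.26) and 1.67 (1.52 to 1.84) in HCC827 cells, vector first. The ratio was higher with myr-AKT1 in both. IκBα over RELA went in opposite directions, from 5.24 (4.94 to 5.56) to 6.86 (6.41 to 7.35) in A549 cells and from 5.23 (4.90 to 5.58) to 4.76 (4.48 to 5.05) in HCC827 cells. The HCC827 intervals overlapped.

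**Figure D4:**
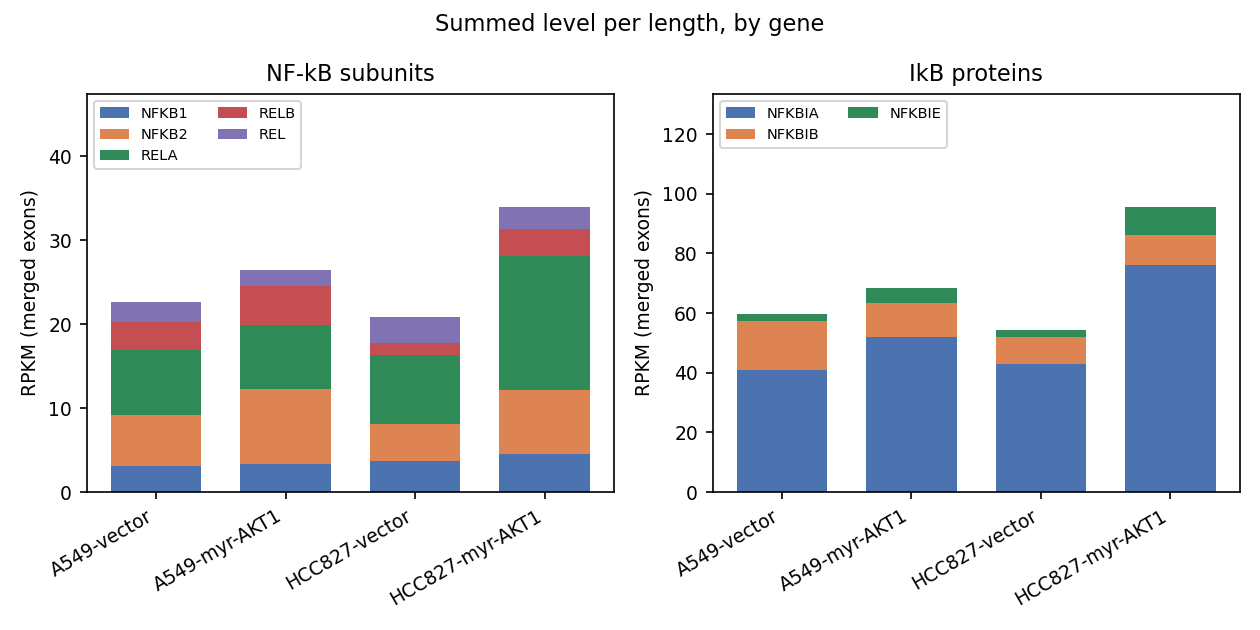
Level per length (RPKM over merged exons, stacked bars from 0) of the 5 subunits and the 3 IκB proteins in the 4 libraries. RELA is the largest part of the subunit sum in 3 libraries, and NFKBIA the largest part of the IκB sum in all 4.

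The vector libraries differed most for RELB and NFKBIB. With size factors over all 4 libraries, RELB was higher in A549-vector than in HCC827-vector by a log2 ratio of 1.13 (0.83 to 1.44), NFKBIB by 0.87 (0.73 to 1.02), NFKB2 by 0.51 (0.37 to 0.65) and TNFAIP3 by 0.32 (0.16 to 0.48). REL, NFKB1 and BIRC3 were lower in A549-vector, with -0.30 (-0.41 to -0.20), -0.27 (-0.37 to -0.17) and -0.23 (-0.29 to -0.16). For RELA, NFKBIA and NFKBIE the interval included 0. The lines were thus closest in the subunit p65 and its main inhibitor. Each line is represented by 1 library here.

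The rest of the pathway was counted by role, in lists that were chosen with earlier results known. The list of kinases and adaptors that carry the signal to IκB had medians close to 0. Of 20 such genes, 0 were past 2-fold in A549 cells and 1, MAP3K8, was higher in HCC827 (log2 fold change 1.12, 0.96 to 1.28). Of all genes averaging 10 or more in the pair, 15.1% (A549) and 14.1% (HCC827) were past 2-fold higher, and 9.87% and 12.4% lower. The medians of the 20 kinases and adaptors were -0.03 and -0.002. MAP3K14, which encodes the kinase NIK of the non-canonical branch, had the lowest value in A549 cells at -0.62 (-0.77 to -0.48) and 0.25 (0.06 to 0.44) in HCC827 cells. RBCK1, a subunit of the linear ubiquitin ligase, had the highest value in A549 cells at 0.50 (0.42 to 0.58). RIPK1 had the lowest in HCC827 cells, at -0.53 (-0.69 to -0.37).

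Further inhibitors were less uniform. Of the 3 atypical IκB genes, BCL3 had 0.81 (0.67 to 0.96) in A549 cells and 1.01 (0.84 to 1.19) in HCC827 cells. NFKBIZ had 0.87 and 0.19, and NFKBID had -0.73 and -0.51. Among 13 other negative regulators, 0 were past 2-fold in A549 cells and 3, TNIP3, TRAF1 and TNIP1, were higher in HCC827 cells. Of all genes averaging 10 or more in the pair, 15.1% (A549) and 14.1% (HCC827) were past 2-fold higher. TNIP3, which encodes a partner of A20, had 78.7 normalized counts in HCC827-vector and 4238 in HCC827-myr-AKT1, a log2 fold change of 5.75 (5.46 to 6.05). In A549 cells it had 34.1 with vector and 29.8 with myr-AKT1, so the high value was in the HCC827-myr-AKT1 library alone. TRAF1 was 1.86-fold higher in A549-myr-AKT1 (290 reads against 204) and 2.82-fold higher in HCC827-myr-AKT1 (98 reads against 55). COMMD1 was the lowest in A549 cells at -0.69, and NKRF the lowest in HCC827 cells at -0.49.

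Upstream of the kinases, several ligand and receptor genes were past 2-fold higher, and IL1A and IL1B were those called by limma. Of 8 ligand genes, 6 had a mean of at least 10 in A549 cells and 5 of these were past 2-fold higher. In HCC827 cells 5 had such a mean and 4 were past 2-fold higher. Over all genes with such a mean 15.1% (A549) and 14.1% (HCC827) were. Some ligands passed the mean only through the myr-AKT1 library, IL1A (97 reads against 3) and IL1B (203 against 6) in A549 cells. In HCC827 cells TNF (27 against 3) and TNFSF12 (24 against 10) did so. IL1B had a log2 fold change of 5.47 (4.32 to 6.93) in A549 cells, from 5.24 to 232 normalized counts, and 3.92 (3.79 to 4.04) in HCC827 cells, from 469 to 7084. IL1A had 5.41 (3.82 to 7.71), against 3 reads in A549-vector, and 3.85 (3.64 to 4.07). Both passed limma's test, with an adjusted p of 0.00658 for IL1B and 0.00959 for IL1A. Neither passed with a pseudocount of 0.1 (0.0669 and 0.0780), on log2 CPM with TMM factors (0.0540 and 0.0916) or without the block. They encode the cytokines IL1α and IL1β, which themselves activate the pathway. TNFSF12 had the lowest value of the ligands in A549 cells, at 0.96, and TNFSF13B the lowest in HCC827 cells, at -0.04 (-1.51 to 1.34). Of 10 receptor genes, 4 of the 10 with such a mean were past 2-fold higher in A549 cells, and in HCC827 cells 2 of 7 were. TNFRSF11A (RANK) had 1.63 (1.41 to 1.86) and 2.45 (1.82 to 3.12), and TNFRSF1B had 1.32 (0.21 to 2.52) and 4.43 (3.65 to 5.33). TLR4 was the highest receptor in A549 cells, at 2.82 (2.02 to 3.73), and had 0 reads in both HCC827 libraries. It encodes the receptor of bacterial lipopolysaccharide. TNFRSF12A was the lowest in both lines, at -0.36 and -0.65. Limma called 0 receptors, and 3 of the 10 were higher at an unadjusted p under 0.05. DESeq2 called 1 receptor and edgeR 0.

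Of 22 target genes, 21 were matched and 19 had a mean of at least 10 in each line. In A549 cells 9 of the 19 were past 2-fold higher and 0 lower, and in HCC827 cells 14 were higher and 1, PLAU, was lower. Over all genes with such a mean 15.1% (A549) and 14.1% (HCC827) were higher. Some targets passed the mean only through the myr-AKT1 library, VCAM1 (93 reads against 6) and IL6 (59 against 6) in A549 cells. In HCC827 cells CCL2 (28 against 3), CCL5 (25 against 3) and IL32 (16 against 2) did so. All of these were among the targets counted as past 2-fold higher. The medians of the targets were 0.90 and 2.96. CXCL8 had 2.21 (2.12 to 2.31) in A549 cells and 4.12 (4.01 to 4.22) in HCC827 cells, with an adjusted p of 0.0133 from limma. CCL5 had 3.23 (2.71 to 3.78) and 3.72 (2.01 to 6.09), the latter against 3 reads, with an adjusted p of 0.0403 from limma. These chemokine genes were the 2 targets called. Both calls ended with a pseudocount of 0.1, on log2 CPM with TMM factors and without the block, and that of CCL5 also with a pseudocount of 0.5 and with a mean of at least 50. edgeR called 3 targets and DESeq2 9. IL32 had 2.50 (2.24 to 2.78) and 3.66 (1.57 to 6.83), the latter against 2 reads. CCL20 had 1.20 (0.92 to 1.48) and 4.19 (3.84 to 4.57), the highest target in HCC827 cells. VCAM1 was the highest in A549 cells at 4.35 (3.17 to 5.83), and had 0 reads in both HCC827 libraries. BCL2L1 was at -0.13 and 0.03. PLAU had 0.90 (0.81 to 0.98) in A549 cells and -1.11 (-1.16 to -1.06) in HCC827 cells.

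**Figure D5:**
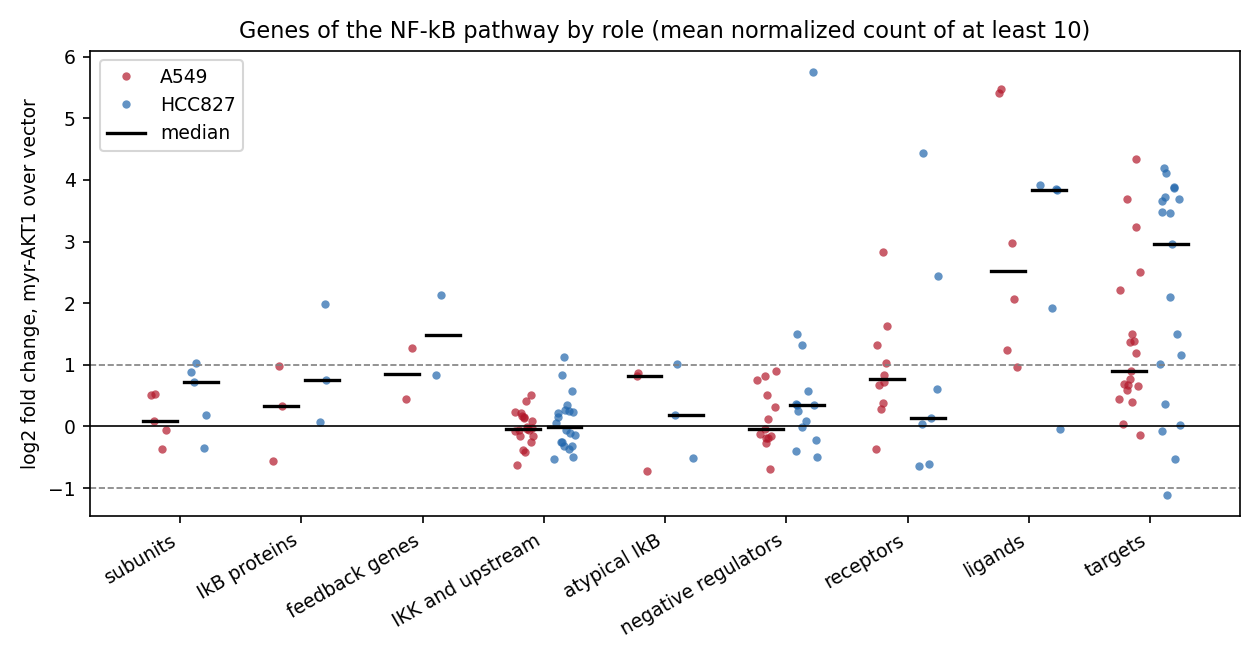
Log2 fold change, myr-AKT1 over vector, of each gene averaging 10 or more normalized counts in the pair, by role in the pathway, in A549 (red) and HCC827 (blue) cells. Black bars are list medians, -0.03 and -0.002 for the kinases and adaptors and 0.90 and 2.96 for the targets.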

How the data were processed

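Strand-specific RNA sequencing covered 1 library of each condition in each line. Sources differ on the RNA used, which was polyadenylated according to the Methods and depleted of rRNA according to the labels. Reads were trimmed, aligned with Bowtie2 and assigned to genes with HTSeq by the authors. RPKM is named in the Methods, yet the deposited signal equals reads over a library-wide size factor that was estimated within a line. Dividing by the value of 1 read gave whole reads, within 0.001, for all genes but 1 in each vector library. Recovered reads per library ranged from 16322183 to 33530317.

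Log2 fold changes within a line are ratios of deposited values, no pseudocount being added, and their 95% intervals (Clopper-Pearson) were taken from the reads. A gene without reads in 1 library and a mean of at least 10 counted as past 2-fold. Ratio and difference intervals likewise cover counting error only, since reads are not independent molecules. The interval of a difference between lines used the Poisson variance of the 4 read numbers. Across lines, limma was fitted on log2(value + 1) with a trend and cell line as a block, on genes kept by filterByExpr, with Benjamini-Hochberg adjustment; replicates are then cell lines. The statistical scripts were tested on simulated data. RPKM was recomputed here from reads and GENCODE 44 exons. Of 60558 identifiers, 297 had no match in GENCODE 44, and SOD2 was left out for that reason. Members and lists were chosen with earlier results of these data known. Named were all members and, by list, genes past 2-fold the same way in both lines (up to 4) and the highest and lowest in each line; others named were chosen after their values were seen. Alternatives changed the scaling, pseudocount, threshold, filter, tool and block. For the listed genes, the markers and the order of the lines they were chosen after seeing the data. Fits used DESeq2 1.42.0, edgeR 4.0.16 and limma 3.58.1 under R 4.3.3, and other steps pandas 2.3.3 and scipy 1.17.1 under Python 3.11.15.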

Additional observations from a re-analysis of the deposited data

Results flagged for a closer look

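For 2 members the lines had log2 fold changes of opposite sign, and this difference was not tested. RELA was at -0.06 in A549 and at 0.88 in HCC827, a difference of 0.94 on the log2 scale, and the A549 interval included 0. NFKBIB was at -0.56 in A549 and at 0.07 in HCC827, a difference of 0.63, and the HCC827 interval included 0.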

How the results depend on the processing

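With 1 library per condition, counting intervals say nothing on variation between cultures, and leaving out a library leaves the fit no residual degree of freedom and returns the values of the other line. The cell line block pairs the libraries of a line, and the labels carry no replicate numbers for another pairing. In A549 cells 2 members were past 2-fold higher with size factors over all 4 libraries and with TMM, and 0 at the threshold of log2 fold change 2, which left 1 in HCC827 cells. The A549 median was 0.49 with size factors over all 4 libraries, a scaling that moves all A549 values by 0.102, and the HCC827 median was 0.87 with total reads. RELA in A549 cells turned to 0.0408 with size factors over all 4 libraries, within its interval around 0. Limma called 0 members higher on log2 CPM with TMM factors, with a pseudocount of 0.5 or 0.1, and without the block. It called 2, TNFAIP3 and NFKBIE, without the filter on low values. The cause was not tested. edgeR, DESeq2 and a mean of at least 50 each gave 1. No setting called a member lower.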
